A study of Mus musculus with 25 samples.

Results

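Microglia are the resident macrophages of the brain and spinal cord. They survey the tissue with fine processes, sense nucleotides released from damaged cells through purinergic receptors, and depend on TGF-beta and on signalling through the receptor Csf1r to keep their resting program. After damage they are known to retract, lose that program and take up debris. Described here is what their RNA held 1 day after spinal cord injury, set against laminectomy alone, in which the vertebral bone is removed but the cord is not injured.

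The members were the cells that the authors' deposited cell table puts in cell type code 1, taken from 5 libraries. They were 5195 of the 30958 cells of the series, 3308 of them from 3 day 1 libraries and 1887 from 2 control libraries. Cells came from 5 mm lesion segments, were freed of myelin on a density gradient, sorted by fluorescence and captured on a droplet 3′ platform, and each library pooled 1 to 3 mice. All groups carried Cx3cr1CreERT2, an inducible Cre placed at the Cx3cr1 locus. The 3 day 1 libraries (D1_mixed 1, 2 and 3) were from male Cx3cr1CreERT2 mice, sorted for YFP, so that resident and recruited cells entered together. The mixed control (Ctrl_mixed 1) was from female mice of the same strain and sort. The resident control (Ctrl_resident 1) was from male Cx3cr1CreERT2:R26tdTomato mice, in which a red reporter is switched on by Cre, and cells positive for both colours were sorted. The age of the mice is not given in the sources used here. All 5 libraries carry Cre at the locus of 1 of the genes reported below, Cx3cr1.

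The member cells numbered 1429 in the mixed control, 458 in the resident control, and 1197, 790 and 1321 in D1_mixed 1, 2 and 3. Their summed UMIs ran from 1853773 to 5597527 per library, and no cell barcode was shared between libraries. The controls fell wholly into deposited cluster 1, and no other library had a cell there. Day 1 microglia lay mainly in clusters 5 and 2. D1_mixed 3 stood apart, with 46.2% of its microglia in cluster 2 against 15.0% and 14.9%, a median of 1.33% mitochondrial counts against 0.609% and 0.530%, and 12.7% of cells at or over 5% against 5.93% and 4.94%. The mixed and resident controls had a median of 0.664% and 0.572% mitochondrial counts, with 0.070% and 0% of cells at or over 5%. The median number of genes per cell was 1806 and 1848 in the controls and 1269, 1354 and 1068 at day 1. The 3 day 1 libraries were sequenced in a pool that held no control, so pool and injury cannot be told apart. Labels do not say whether libraries came from separate operations, so p-values measure only the spread between libraries.

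The cells carried the microglia markers their code implies. In these checks CPM means UMIs scaled to equal library totals. Of 9 marker genes all were detected in every library, summing to 26611 and 30015 CPM in the controls and to 4787 to 9100 at day 1, and 8 of the 9 fell. Markers of recruited cells were checked in the same sums. Monocyte markers summed to 8.40 and 10.8 CPM in the controls and 6.34 to 32.5 at day 1, and of 4 tested 1 rose, F13a1, from 0.536 and 1.08 CPM to 2.63, 5.13 and 9.52, a call (adjusted p = 0.0426) lost in 15 of 30 alternatives, those without either control, D1_mixed 2 or D1_mixed 3 among them. Ly6c2 and Ccr2 were each under 1 CPM in every day 1 library, while Chil3 and Hp were at 11.4 and 9.28 CPM in D1_mixed 3 and under 2 in the other day 1 libraries, without passing the test. Macrophage markers summed to 361 and 417 CPM in controls and 1016 to 1440 at day 1, and 6 of the 9 rose, among them Fn1 and Tgfbi. Border macrophage markers summed to 2.86 and 8.09 CPM in controls and 39.4 to 165 at day 1, chiefly Pf4, and of 6 tested 3 rose and none fell. These were Pf4, F13a1, which both lists hold, and Folr2, from 0.179 and 1.08 CPM to 2.19, 4.27 and 5.57. Cd163 and Lyve1 were under 2 CPM in every day 1 library. Neutrophil markers summed to 12.4 and 12.5 CPM in controls and 15.5 to 97.7 at day 1. Of 5 tested 1 fell, Ngp, a call lost in 4 of the 27 alternatives that tested it, that without the mixed control among them. The 1 that rose, S100a8, was at 10.7, 44.7 and 92.8 CPM in D1_mixed 1, 2 and 3, a call lost without the resident control (adjusted p = 0.0542), while its partner S100a9 was at 4.59, 0.570 and 1.62. D1_mixed 3, with the most S100a8, also had the most Cxcl2, Marco and Npy of the day 1 libraries. Markers of further cell types moved too. Of 2 tested dendritic cell markers 1 rose, and that list summed to 115 and 138 CPM in controls and 196 to 204 at day 1. Of 5 astrocyte markers Gfap rose (1.97, 3.24, 28.0, 22.8 and 3.02 CPM, controls first) and Slc1a3 fell (from 110 and 146 to between 3.99 and 7.44). Of 7 oligodendrocyte markers Mobp rose (from 4.29 and 3.78 to between 12.8 and 17.3), a call lost in 9 of 30 alternatives, those without either control, D1_mixed 1 or D1_mixed 2 among them, and the list summed to 192 and 219 CPM in controls and 129 to 246 at day 1. Both tested B cell markers fell, Ighm and Cd79b. The Cd79b call was lost in 4 of 30 alternatives, those without the mixed control and without D1_mixed 2 (adjusted p = 0.0570) among them. The part of other cells in the changes given below was not tested.

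From here on, levels are CPM on edgeR's TMM-scaled library sizes. The TMM factors were 1.38 and 1.46 in the controls and 0.84 to 0.91 at day 1, so a day 1 level stands higher against the controls on this scale than as a plain share of UMIs. Values of single libraries are given in the order mixed control, resident control, D1_mixed 1, 2 and 3. Changes are log2 values, day 1 minus control, with their standard error (SE), from edgeR's quasi-likelihood test, and a gene is said to have risen or fallen where its Benjamini-Hochberg adjusted p was under 0.05. Of the 10801 genes tested, 46.6% passed, 23.9% higher and 22.7% lower, and the median log2 change of all of them was -0.01. Shares of a gene list are read against these 2 background shares. Each sum is scaled to its library, so values are relative to the other RNA of the same cells and not amounts per cell.

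The resting program of microglia was lower at day 1 almost throughout. Of 21 homeostatic genes, 19 fell and none rose, with a median log2 change of -2.23 (background 22.7% lower). P2ry12, the ADP receptor that steers processes towards damage, had 2600, 974, 135, 114 and 90.4 CPM. Every day 1 library lay below both controls, which differed from each other, and the change was -4.36 (SE 0.60, adjusted p = 3.73e-05). Tmem119, a microglia-restricted membrane protein, had 1118, 1042, 298, 240 and 109 CPM (-2.31). Sall1, the transcription factor that holds microglial identity, had 158, 108, 20.6, 23.2 and 29.8 CPM (-2.47). Among other members, Sparc, a matrix-binding glycoprotein, changed by -1.86, and Csf1r, the receptor for the survival factors CSF1 and IL-34, by -1.26. Cst3, a secreted protease inhibitor with the highest level of the list, had 45760, 35487, 20191, 18434 and 30263 CPM and did not pass (-0.92, adjusted p = 0.0614), though it passed without D1_mixed 3 (-1.12, adjusted p = 0.0355) and without any 1 of D2_mixed 2, D3_resident 2, D3_mixed 2, D3_mixed 3 or D21_mixed 1 (adjusted p of 0.0233 to 0.0462).

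Cx3cr1, the fractalkine receptor, was the gene with the largest fall by the naming rule, at 145, 1104, 6.77, 4.97 and 8.27 CPM (-6.43, SE 1.62, adjusted p = 0.00386). The controls differed from each other more than for any other of the 21 genes of the list, and Cre sits at this locus in all 5 libraries. Without the resident control the change was -2.47 and no longer passed (adjusted p = 0.338).

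**Figure D1:**
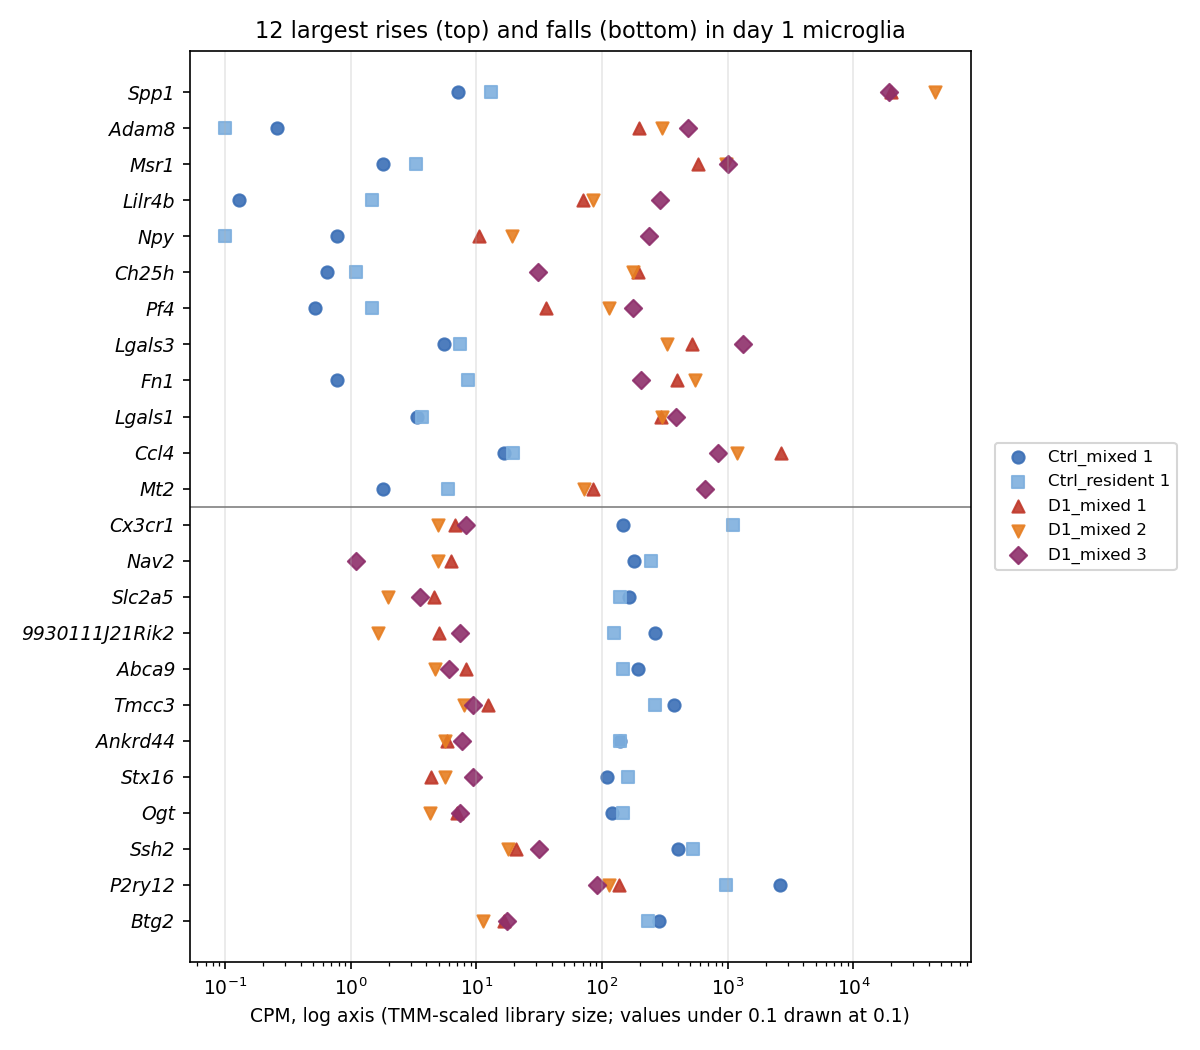
CPM per library, on a log axis, of the 12 genes with the largest rise and the 12 with the largest fall by the naming rule. Blue symbols are the 2 control libraries and the others are the 3 day 1 libraries, and for all 24 genes the groups do not overlap, a condition of the rule that 34.9% of all tested genes met upwards and 36.8% downwards.

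In 4 lists of signalling and transcription factor genes falls outnumbered rises (background 22.7% lower and 23.9% higher). In the TGF-beta list 7 of 14 fell and none rose. Tgfbr1, the type I TGF-beta receptor, had 903, 529, 68.0, 42.1 and 47.4 CPM (-3.66, SE 0.54, adjusted p = 6.78e-05), and Skil, a brake on Smad signalling that TGF-beta itself induces, changed by -1.61. Of 18 microglia and macrophage transcription factors 10 fell and 2 rose, with Mef2a (-2.88) and Mef2c (-1.65), MADS-box factors of microglial enhancers, among those that fell. Of 18 genes for purinergic receptors, ion channels and motility, 9 fell and none rose, including the lysophosphatidylserine receptor Gpr34 (-2.16) and the nucleotide receptor P2ry13 (-2.12). Of 31 Toll-like and cytokine receptors, 11 fell and 2 rose. Il10ra, the ligand-binding chain for the anti-inflammatory cytokine IL-10, had 167, 172, 14.5, 10.9 and 9.65 CPM (-4.00), and Ifngr1, a chain of the interferon-gamma receptor, changed by -2.20. Il4ra, the IL-4 receptor chain, was the largest rise of that list, at 59.0, 75.8, 81.7, 240 and 261 CPM (1.56, SE 0.43, adjusted p = 0.00635), and lost the call without the mixed control (1.35, adjusted p = 0.0662).

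The largest rise was that of Spp1, osteopontin, a secreted integrin ligand. It had 7.12, 12.9, 20003, 44598 and 19301 CPM. In the macrophages of the day 1 libraries, without TMM scaling, it stood at 25885 CPM. Adam8, a membrane protease, had 2 counts in both controls together and 3456 at day 1, a ratio of 1672 (95% counting interval 463 to 13815). Msr1, scavenger receptor A, had 1.81, 3.33, 583, 967 and 1010 CPM (8.53, SE 0.52, adjusted p = 2.43e-08). The galectins Lgals3 and Lgals1, which bind sugars on cells and matrix, were among the largest rises. Lgals3 had 5.56, 7.40, 516, 328 and 1312 CPM (6.77), and Lgals1 3.36, 3.70, 293, 298 and 388 (6.59). In some of these genes 1 day 1 library differed from the others. Npy, neuropeptide Y, was at 10.4 and 19.2 CPM in D1_mixed 1 and 2 and 235 in D1_mixed 3. Ch25h, which makes 25-hydroxycholesterol, went the other way, at 193 and 177 CPM and 30.9 in D1_mixed 3.

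Of 28 genes known to rise in disease-associated microglia, 18 rose and 1 fell (background 23.9% higher). Lpl, lipoprotein lipase, had 39.6, 53.3, 1262, 1207 and 1111 CPM (4.71, SE 0.34, adjusted p = 1.77e-07), and the cathepsin Ctsl had 1682, 1693, 5206, 6473 and 8906 (2.11). A receptor tied to that program moved the other way. Trem2, a lipid-sensing receptor, had 1976, 1374, 1014, 717 and 674 CPM (-1.004, adjusted p = 0.0108), a call lost without the mixed control (-0.78, adjusted p = 0.0935). Its adaptor Tyrobp had 2205, 2241, 3038, 3181 and 3101 CPM and did not pass (0.35, adjusted p = 0.258). Apoe, a lipid carrier, had 1141, 1114, 1005, 1068 and 1593 CPM (-0.06, SE 0.44, adjusted p = 0.928). It stood between 53446 and 64967 CPM in the 3 day 10 libraries and at 88552 in the day 21 library.

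Chemokine ligands, the secreted proteins that recruit leukocytes, were among the lists with the highest median change. Of 18 tested 12 rose and 1 fell, with a median log2 change of 3.70. Ccl4 had 16.6, 19.6, 2651, 1176 and 840 CPM (6.36, SE 0.77, adjusted p = 1.43e-05). Ccl2, which draws monocytes through Ccr2, had 11.6, 106, 994, 1659 and 840 CPM (4.39), and its controls differed. Ccl12 had 119, 861, 3530, 6718 and 1426 CPM (3.02). Cxcl2, a neutrophil attractant, was almost confined to 1 library, with 2.42 and 1.33 CPM in D1_mixed 1 and 2 and 240 in D1_mixed 3. Its call (adjusted p = 0.0270) was lost in 8 of the 26 alternatives that tested it, with an adjusted p from 0.0523 upwards, among them those without either control, without D3_resident 2 and without the cells of cluster 2. The 1 member that fell, Cxcl13, had 0.518 and 29.2 CPM in the controls, so its call rests on the resident control and was lost without it (-2.60, adjusted p = 0.365).

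Cytokine genes moved both ways, as the tested genes did as a whole. Of 17 cytokines and inhibitors, 5 rose (29.4%, background 23.9%) and 6 fell (35.3%, background 22.7%). Il1b had 5.31, 7.77, 6.77, 3.65 and 3.58 CPM (-0.51, SE 0.59, adjusted p = 0.502) and Tnf 18.1, 17.4, 27.1, 14.9 and 27.0 (0.46, SE 0.63, adjusted p = 0.572). In both, day 1 and control libraries overlapped. Il1rn, the secreted antagonist of IL-1, had 0.518, 0.740, 45.2, 51.4 and 147 CPM (7.07, SE 0.91, adjusted p = 2.26e-05). Il1a fell (-1.55), a call lost in 3 of 30 alternatives, that without the resident control (-1.49) among them. Il16 fell (-3.61). Of 21 NF-kB factors and feedback genes 5 rose (23.8%, near the background) and 7 fell (33.3%). Sod2, the mitochondrial superoxide dismutase, rose (2.77) and Rel, a subunit of NF-kB, fell (-1.96). Of 23 immediate early genes, which respond quickly to stimuli, 8 fell (34.8%) and 4 rose (17.4%). Btg2 (-4.36) and Jun (-2.54) were among those that fell and Ier3 (3.12) among those that rose.

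Interferon-stimulated genes gave no firm direction. Of 26 tested 8 fell (30.8%, background 22.7%) and 1 rose, with a median of -1.25. Without the resident control 3 fell and the median was 0.80. The member that rose was Ifitm2, an antiviral membrane protein, at 2.46, 10.7, 97.0, 170 and 114 CPM (4.41). Stat2, a transcription factor of the interferon response, fell (-3.50).

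**Figure D2:**
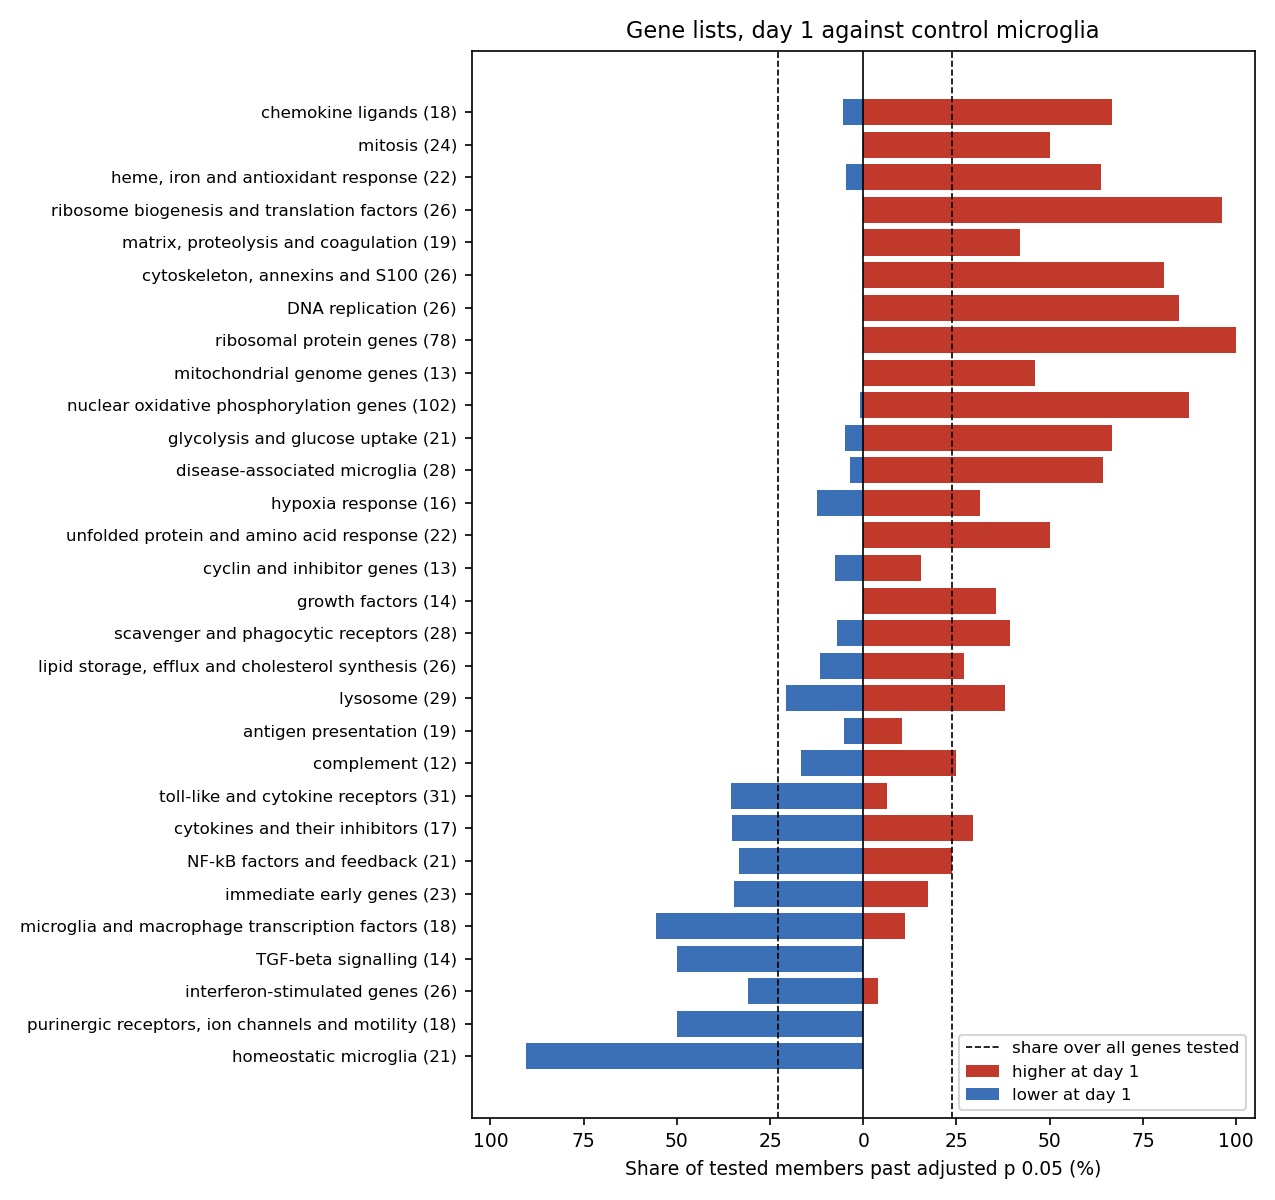
Share of the tested members of each gene list that rose (red, right) or fell (blue, left) at day 1, with the number tested in brackets and lists ordered by median log2 change. The broken lines are the shares over all tested genes, 23.9% higher and 22.7% lower.

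Ribosomal protein genes rose as a whole group, and most tested genes of ribosome biogenesis, oxidative phosphorylation and glycolysis rose. All 78 tested ribosomal protein genes rose, with a median log2 change of 1.93. Together they made up 8.74% and 7.99% of microglia UMIs in the controls and 17.2%, 18.6% and 19.5% at day 1. Every later library of the fit was also above the controls, from 12.6% to 18.8%, including day 10 libraries of the controls' own pools at 15.9% to 17.1%. Of 26 ribosome biogenesis and translation factors 25 rose, with a median of 2.29. Npm1, nucleophosmin of the nucleolus, had 252, 223, 2009, 2267 and 1914 CPM (3.25, SE 0.33, adjusted p = 4.61e-06). Nucleolin (Ncl, 2.90), the translation factor Eif5a (3.45) and the snoRNP protein Nhp2 (3.72) rose with it.

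Of 102 nuclear genes with oxidative phosphorylation prefixes (Nduf, Sdh, Uqcr, Cox, Atp5) 89 rose and 1 fell. Their share of UMIs was 1.24% and 1.39% in controls and 2.77%, 2.84% and 2.84% at day 1. Of the 13 mitochondrial genome genes 6 rose. Their share of UMIs was 0.806% and 0.771% in controls and 1.39%, 1.26% and 2.29% in D1_mixed 1, 2 and 3. Glycolysis and glucose uptake genes rose in 14 of 21 cases and fell in 1. Gapdh had 563, 804, 5469, 6828 and 6550 CPM (3.20, SE 0.39, adjusted p = 1.37e-05). Pkm, pyruvate kinase, had 117, 194, 1801, 2362 and 2845 CPM (3.76), and Ldha, which turns pyruvate to lactate, 126, 174, 1311, 1575 and 1464 (3.23). Pfkfb4, which sets fructose 2,6-bisphosphate, was the 1 that fell (-2.70), though in the mixed libraries alone its change was 4.59 without passing (adjusted p = 0.758). Slc2a5, a fructose transporter expressed in microglia among brain cells, was among the largest falls, at 164, 139, 4.60, 1.99 and 3.58 CPM (-5.71).

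**Figure D3:**
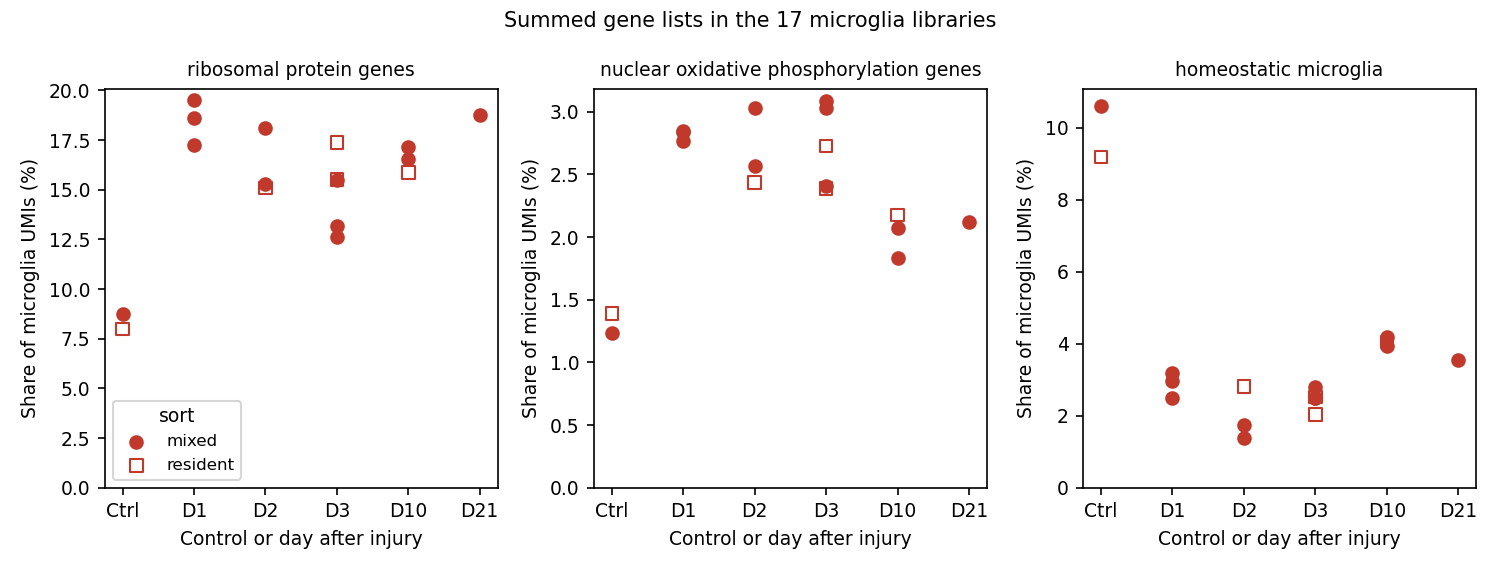
Share of microglia UMIs taken by ribosomal protein, oxidative phosphorylation and homeostatic genes in each of the 17 libraries of the fit, by time point, with filled symbols for mixed and open for resident sorts. The ribosomal share is 7.99% and 8.74% in the controls and 12.6% or more in every later library, and the homeostatic share falls from 9.19% and 10.6% to 2.50% to 3.18% at day 1.

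Of 16 hypoxia response genes 5 rose and 2 fell (background 23.9% and 22.7%). Adm, adrenomedullin, had no count in either control and 32 at day 1, at least 10.3-fold higher against a floor of 3 counts over the controls, with a call lost without the mixed control (adjusted p = 0.0656). Pdk1, a kinase that inhibits pyruvate dehydrogenase, fell (-1.48). Its call was lost in 2 of 30 alternatives, that without the resident control (-1.26) among them. Anxa2, which binds membranes and plasminogen, rose from 2.98 and 5.92 CPM to 68.7, 111 and 283 (5.19). To show the letters behind 2 glycolytic genes, the promoters of Ldha and Pgk1 were searched for ACGTG, the core of the hypoxia response element, on both strands. They were chosen after their values were seen. Sequences are from RefSeq (GRCm38.p6), 250 bases before to 50 after a start, 5′ to 3′, with matches in capitals. Ldha, plus strand, chr7:46845554-46845853, has 5 matches in the 1 of its 2 starts with the most, and Pgk1, plus strand, chrX:106186850-106187149, has 2. Matches on opposite strands can share letters.
Ldha: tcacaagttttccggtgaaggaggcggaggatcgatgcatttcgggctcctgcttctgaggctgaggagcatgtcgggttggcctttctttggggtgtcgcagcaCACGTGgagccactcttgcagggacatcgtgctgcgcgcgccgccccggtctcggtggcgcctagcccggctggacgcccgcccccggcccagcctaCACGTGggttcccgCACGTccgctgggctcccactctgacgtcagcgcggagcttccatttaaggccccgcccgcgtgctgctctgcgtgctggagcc
Pgk1: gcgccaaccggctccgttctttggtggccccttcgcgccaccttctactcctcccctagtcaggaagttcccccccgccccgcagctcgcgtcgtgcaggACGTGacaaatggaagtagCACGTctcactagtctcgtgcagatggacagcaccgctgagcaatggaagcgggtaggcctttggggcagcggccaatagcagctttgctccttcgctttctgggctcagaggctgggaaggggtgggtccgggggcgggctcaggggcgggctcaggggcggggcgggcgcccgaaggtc
Over all 32851 promoters in the table, 19.6% hold at least 1 match, 8.21% at least 2 and 0.183% at least 5. Of the 20 glycolysis genes with a RefSeq promoter, 14 (70.0%) hold at least 1 match at any start, against 21.8% of all 27025 genes. Of the 14 that rose, 71.4% hold 1, much the share of the whole list. The same 20 genes also hold TGCNCNC, a looser form of the core of the metal response element, more often than all genes, in 85.0% against 53.6%.

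Heme, iron and antioxidant genes rose in 14 of 22 cases and fell in 1, with a median log2 change of 2.61 (2.56 with genes at 0 in the controls set at their bound). Hmox1, heme oxygenase, which breaks down heme from lysed red cells and is named outside the rule, had 31.4, 38.8, 975, 1597 and 2297 CPM (5.55, SE 0.62, adjusted p = 7.71e-06). The ferritin chains Fth1 (2604, 3279, 14905, 19248 and 36474 CPM, 2.95) and Ftl1 (1358, 1117, 12541, 11836 and 12442 CPM, 3.22) store iron. The exporter Slc40a1, ferroportin, moved the other way, at 69.6, 49.2, 6.29, 2.98 and 4.41 CPM (-4.07). Prdx1, a peroxidase, rose (2.61).

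The metallothioneins Mt1 and Mt2 bind zinc and copper. Mt1 had 96.5, 114, 858, 822 and 3710 CPM (4.09, SE 0.65, adjusted p = 1.22e-04), and Mt2 1.81, 5.92, 85.1, 72.3 and 661 (6.31, SE 1.01, adjusted p = 1.24e-04). In both, all day 1 libraries lay above the controls and D1_mixed 3 above the other day 1 libraries. The promoters of both genes, chosen after their values were seen, are shown with matches to TGCNCNC in capitals on either strand. This pattern is looser than the core of the metal response element, TGCRCNC, where R is A or G. Mt1 lies on chr8:94178839-94179138 and Mt2 on chr8:94172368-94172667, both on the plus strand of GRCm38.p6, from RefSeq.
Mt1: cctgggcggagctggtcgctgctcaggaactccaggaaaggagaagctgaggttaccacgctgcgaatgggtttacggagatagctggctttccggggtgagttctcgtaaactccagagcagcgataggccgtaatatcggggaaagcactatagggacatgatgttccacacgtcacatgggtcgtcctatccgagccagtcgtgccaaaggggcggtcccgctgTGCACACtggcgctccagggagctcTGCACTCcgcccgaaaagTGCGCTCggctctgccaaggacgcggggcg
Mt2: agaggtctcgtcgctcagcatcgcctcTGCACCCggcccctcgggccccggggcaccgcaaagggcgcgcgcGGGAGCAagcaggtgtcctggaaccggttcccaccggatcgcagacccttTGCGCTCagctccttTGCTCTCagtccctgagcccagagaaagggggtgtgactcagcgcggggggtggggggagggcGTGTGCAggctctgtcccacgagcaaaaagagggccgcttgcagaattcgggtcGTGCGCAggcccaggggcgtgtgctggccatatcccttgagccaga
Mt1 holds 3 matches and Mt2 holds 6. At least 3 are found in 7.10% of all promoters in the table and at least 6 in 0.225%, while 51.0% have at least 1. Of the 16 genes of the heme, iron and antioxidant list with a RefSeq promoter, 8 hold 1 at any start, against 53.6% of all genes. A match is a description of letters and not evidence of binding.

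Of 28 scavenger and phagocytic receptors 11 rose (39.3%, background 23.9%) and 2 fell. Marco, a scavenger receptor for particles, had no count in either control and 6.05, 0.332 and 45.7 CPM at day 1, at least 61.9-fold higher over the pooled counts, most of it in D1_mixed 3. Its call was lost without the resident control (adjusted p = 0.0578). Cd14, the lipopolysaccharide co-receptor, rose (1.32), a call lost in 3 of 30 alternatives, that without the resident control (1.13) among them. Mertk, which takes up apoptotic cells, fell from 206 and 214 CPM to 32.9, 29.8 and 48.2 (-2.54). Of 26 lipid genes 7 rose (26.9%), a share near the background of 23.9%, and 3 fell. Plin2, which coats lipid droplets, had 23.4, 22.9, 308, 254 and 578 CPM (3.97), and Fabp5, a fatty acid carrier, rose (4.27).

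In the complement list 3 of 12 rose and 2 fell (background 23.9% and 22.7%). The receptors for C5a moved in opposite directions. C5ar1, which signals, had 109, 228, 1095, 941 and 663 CPM (2.35), and C5ar2 44.5, 59.6, 13.1, 16.3 and 9.09 (-2.21). The C1q chains, the start of the classical pathway, did not pass: C1qa had a change of -0.50 (adjusted p = 0.235), C1qb -0.04 (adjusted p = 0.918) and C1qc -0.38 (adjusted p = 0.234). For C1qa and C1qc every day 1 library lay below both controls. As a share of microglia UMIs, without TMM scaling, the complement list made 3.49% and 3.85% in the controls and 2.09%, 1.82% and 1.89% at day 1.

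Cytoskeleton, annexin and S100 genes rose in 21 of 26 cases and none fell, with a median of 1.98. Actb had 4024, 6617, 26600, 27382 and 15489 CPM (1.99, SE 0.50, adjusted p = 0.00396), and the actin-binding Tmsb4x (1.86) and Cfl1 (2.51) rose with it. In the list of matrix, proteolysis and coagulation genes 8 of 19 rose, with a median of 2.02 (1.83 with such genes at their bound). Fn1, fibronectin, had 0.776, 8.51, 394, 548 and 204 CPM (6.66), and Sdc4, a proteoglycan, 7.76, 10.7, 146, 207 and 591 (5.04). Pf4, a platelet chemokine that border macrophages also make, had 0.518, 1.48, 35.6, 113 and 177 CPM (6.96). Fn1 and Pf4 were also abundant in the macrophages of the same day 1 libraries, at 2092 and 3389 CPM without TMM scaling, as was Spp1, and the part of these cells in the microglial values was not tested.

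DNA replication genes were higher, chiefly in D1_mixed 1 and 2. Of 26 replication genes 22 rose (background 23.9%), with a median of 1.96. Pcna, the sliding clamp, had 23.9, 50.3, 231, 168 and 127 CPM (2.27), and Mcm3, of the replicative helicase, 30.3, 54.8, 224, 190 and 60.4 (1.91), the latter call lost without the mixed control (1.53, adjusted p = 0.0512). Summed, the list made 0.032% and 0.096% of UMIs in the controls, 0.186% and 0.151% in D1_mixed 1 and 2 and 0.055% in D1_mixed 3, which overlaps the controls. Without the mixed control 3 of the 26 passed. Of 24 mitotic genes 12 rose, and 1 without the mixed control. Mki67, the proliferation marker, had 0.129, 6.29, 6.29, 5.64 and 0 CPM (0.50, adjusted p = 0.776) and Top2a 0.647, 14.1, 39.2, 32.8 and 0.827 (1.81, adjusted p = 0.151). Top2a passed without the resident control (4.95, adjusted p = 0.0256) or without D1_mixed 3 (2.42, adjusted p = 0.0189). At day 2 both were between 114 and 374 CPM in all 3 libraries. Of 13 cyclin and inhibitor genes 2 rose (15.4%, background 23.9%) and 1 fell. Ccnd2, cyclin D2, rose from 0.776 and 1.11 CPM to 24.9, 31.2 and 39.1 (5.22), and Cdkn1b, the inhibitor p27, fell (-2.62).

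Genes that fell had a longer median span than genes that rose. Among the named falls were the cytoskeletal protein Nav2 (-5.89), the lipid transporter Abca9 (-4.87), Tmcc3 (-4.87), Ankrd44 (-4.58), the SNARE protein Stx16 (-4.51), the sugar transferase Ogt (-4.49) and the phosphatase Ssh2 (-4.39). Over all 12 of the largest falls, spans ran from 3951 bases in Btg2 to 701375 in Nav2. Stx16 and Slc2a5, at 23464 and 24887 bases, were also shorter than the median of genes not called. Over all genes with 1 entry in GENCODE M21, the median gene span was 37.8 kb for genes that fell, 25.1 kb for those not called and 13.7 kb for those that rose. In the 10% of genes with the shortest span (up to 4.68 kb) 40.7% rose and 14.4% fell, and in the 10% with the longest (from 113 kb) 8.47% rose and 41.0% fell. Median log2 changes were 0.70 and -0.92. In the mixed libraries alone they were 1.62 and -0.67, with a median of 0.83 over all genes tested there. The longest 10% took 6.19% and 6.14% of UMIs in the controls, 1.87% to 2.04% at day 1 and 2.39% in the day 21 library of the same pool. Later libraries of other pools were at 2.00% to 3.63%, including day 10 libraries of the controls' own pools at 3.12% to 3.51%. Ssh2 had 400 and 531 CPM in the controls, 20.8, 17.9 and 31.7 at day 1 and 129 in that day 21 library. The part of gene span, sequencing pool or RNA quality in these changes was not tested.

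**Figure D4:**
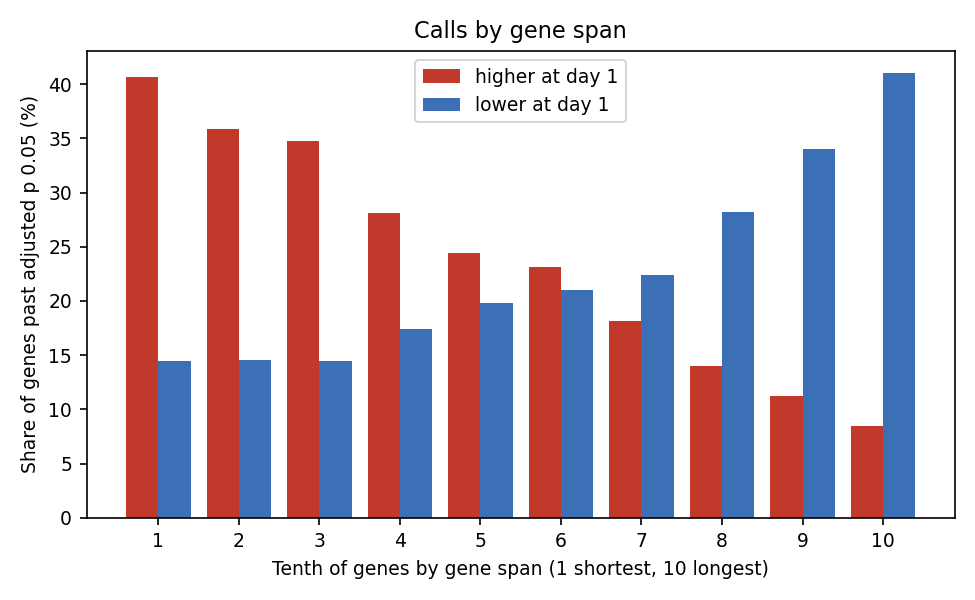
Share of genes that rose (red) or fell (blue) at day 1 in steps of 10% of the tested genes by gene span. The share that rose goes from 40.7% in the shortest step to 8.47% in the longest, and the share that fell from 14.4% to 41.0%.

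To see how the changes were spread over cells, each cell was thinned to 1000 UMIs and the cells with at least 1 UMI of a gene were counted, with exact binomial 95% intervals that cover counting error only. P2ry12 was seen in 93.7% (92.3 to 94.9) and 71.2% (66.8 to 75.3) of control cells and in 8.89% (7.33 to 10.6), 6.96% (5.29 to 8.97) and 6.44% (5.18 to 7.91) of day 1 cells. Macrophages, which lack this gene, showed it in 0.573% of 3142 cells of the day 1 infiltrating libraries. In the 93 macrophages of the same day 1 mixed libraries it was in 4.30% (1.18 to 10.6), an interval that includes all 3 day 1 values. With cells thinned to 2000 UMIs, P2ry12 was in 16.9% (14.5 to 19.4), 15.9% (13.1 to 18.9) and 14.0% (11.8 to 16.4) of day 1 microglia and in 2.70% (0.329 to 9.42) of 74 of these macrophages pooled. Within single libraries the macrophages were few, 21, 9 and 44 cells, and their intervals (0.120 to 23.8, 0 to 33.6 and 0.0575 to 12.02) reached or overlapped those of the microglia, so the day 1 share was above the pooled background only. Tmem119 was in 75.9% and 77.3% of control cells and 20.1%, 15.2% and 7.66% at day 1, against 1.21% and 4.30% (1.18 to 10.6) of these macrophages. The last interval includes the value of D1_mixed 3. At 2000 UMIs the day 1 values were 35.7%, 27.3% and 16.6% (14.2 to 19.1), against 4.05% (0.844 to 11.4) of these macrophages pooled. The macrophage interval of D1_mixed 2 alone (0 to 33.6) included that library's value, and that of D1_mixed 3 (0.555 to 15.5) overlapped that of its microglia.

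The 3 genes that rose and were counted this way, Spp1, Lpl and Hmox1, were seen in a larger part of day 1 cells than of control cells. These shares grow with depth and give no limit on the share of cells that express the gene. Spp1 was seen in 1.05% and 0.873% of control cells and 54.2%, 76.3% and 67.6% of day 1 cells. Lpl was in 3.78% and 4.59% of control cells and 50.5%, 46.1% and 37.9% at day 1. It was in 6.40% of infiltrating-library macrophages and 22.6% (14.6 to 32.4) of those in the mixed libraries pooled. Within single libraries, the macrophage intervals of D1_mixed 1 (19.4 to 57.6) and D1_mixed 2 (5.49 to 57.2) included that library's microglial value. That of D1_mixed 3 (6.62 to 27.1) did not. Hmox1 was in 4.41% and 7.21% of control cells and 35.1%, 47.7% and 54.4% at day 1. Spp1 was seen in 63.4% of infiltrating-library macrophages and 62.4% of those in the mixed libraries, and Hmox1 in 67.4% and 47.3%. For these 2 genes macrophages give no background share, and the part of free RNA in their shares was not tested. Median depths were 3810, 3760, 3072, 3680 and 2652 UMIs per microglial cell, and 11561 and 8330 in the infiltrating libraries' macrophages. Cells under 1000 UMIs were left out, 4 in D1_mixed 1, 2 in D1_mixed 3 and none in the other 3 libraries. At 2000 UMIs 272, 148 and 385 day 1 microglia were left out against 27 and 8 control cells.

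**Figure D5:**
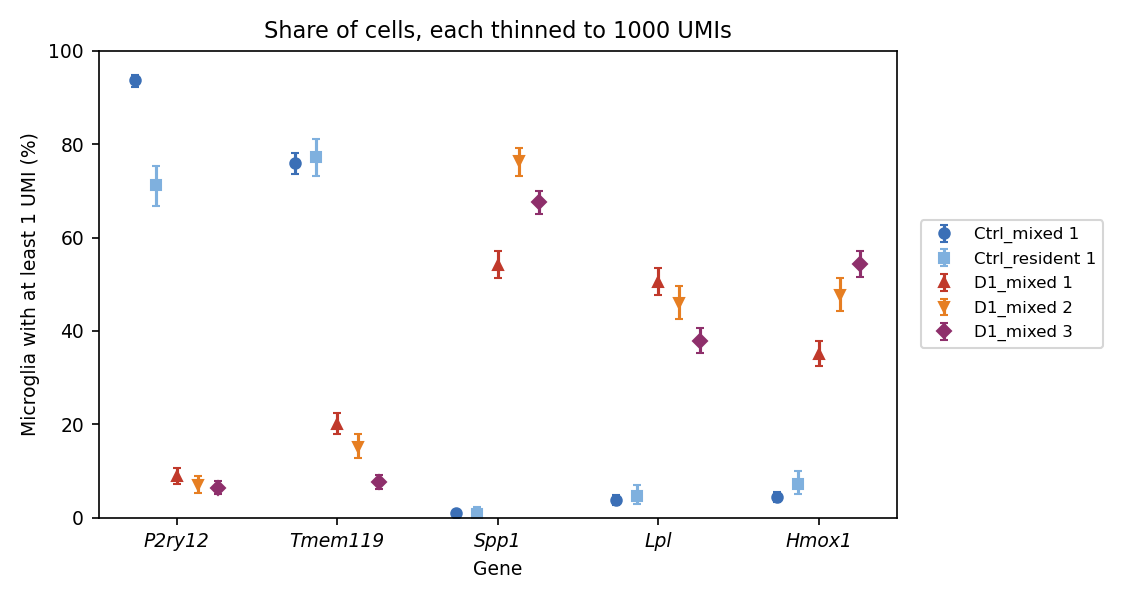
Share of microglia with at least 1 UMI of 5 genes after thinning each cell to 1000 UMIs, per library, with exact binomial 95% intervals. P2ry12 and Tmem119 are lower and Spp1, Lpl and Hmox1 higher in all 3 day 1 libraries than in both controls.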

How the data were processed

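For each library the authors deposited whole UMI counts, not normalized, of every gene in every cell, beside a list of cells with the percent of mitochondrial counts and codes for cell type and cluster. Cell Ranger 3.1.0 and the build GRCm38 (mm10) are named in the submitters' processing notes. Gene and UMI numbers equalled the deposited ones for all 30958 cells. Doublets were not called here, and no correction for free RNA was made.

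Counts were summed over microglia per library and fitted over the 17 resident and mixed libraries with at least 20 such cells (135097 to 7794902 UMIs), with time point and sex as terms, in edgeR 4.0.16 (R 4.3.3, TMM, filterByExpr, 2-sided quasi-likelihood test, Benjamini-Hochberg adjustment over all genes tested). The other time points lend their spread, since 3 against 2 libraries leave few degrees of freedom, and an exact permutation of these 5 could not go below a 2-sided p of 0.2. Named genes were the 12 largest rises and the 12 largest falls among genes past the threshold with a mean of at least 50 CPM and no overlap between groups, the 4 members of each list with the highest level, its largest rise and fall, and 12 genes fixed by name; some of these are not reported here, and Hmox1 and 10 markers of other cell types were added after their values were seen. The members and lists were chosen with earlier results of these data known. For shares of cells, each cell was thinned at random to 1000 UMIs. DESeq2 1.42.0 and other scalings, filters, terms, cells and left-out libraries were tried as alternatives. Gene spans are from GENCODE M21 and promoters from RefSeq.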

Additional observations from a re-analysis of the deposited data

How the results depend on the processing

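Over the 30 alternatives, the number of genes called at day 1 lay between 3370 and 6040 against 5034, except for the mixed libraries alone with 1206 (994 higher, 212 lower), a fit whose sex term rests on the day 2 libraries, 1 of which held 23 cells. The same libraries without the sex term, chosen after seeing the data, gave 4420, and cells under 5% mitochondrial counts, also added then, gave 5054. Leaving out 1 library at a time gave 3370 (Ctrl_resident 1) to 5314 calls, and 3374 without Ctrl_mixed 1. With median-of-ratios scaling 2247 genes were higher and 2861 lower, the median over all tested genes being -0.18. Calls named above exceed that shift, though 1 call named or plotted was lost under this scaling and 2 in DESeq2. Of 95 called genes named above or plotted by the naming rule, 46 kept direction and call under every alternative. In the mixed libraries alone 46 kept the direction and lost the call, and Cxcl13 (1.62) and Pfkfb4 (4.59) turned, as did Tnf (-1.03), which was not called. Apoe and C1qb, close to 0, changed sign without passing: Apoe was 0.073 in the 5 libraries alone, 0.12 without the sex term, 0.15 in mixed libraries without it and -0.28 to 0.18 leaving out 1 library, and C1qb was 0.027 without the sex term, 0.16 in mixed libraries without it and -0.14 to 0.040 leaving out 1 library. Mki67 ran from -0.66 to 4.24 leaving out 1 library. The cause of these changes was not tested. The mean share of cells with a UMI rises with depth by construction. Unthinned, at day 1 it was 24.8% for P2ry12, 36.4% for Tmem119, 67.9% for Lpl and 68.2% for Hmox1, and in controls 97.1% for Tmem119, 2.28% for Spp1, 16.5% for Lpl and 17.5% for Hmox1. At 2000 UMIs it was 15.6%, 26.5%, 60.5% and 58.5% at day 1, and 91.9%, 1.59%, 9.67% and 8.34% in controls, in the same order. No paired analysis was possible because the control libraries share no set of replicate numbers with the day 1 libraries (1 mixed and 1 resident control, both numbered 1). The pool term could not be fitted for this contrast, and the addition of infiltrating-sorted day 1 libraries was not run, since each held 7 microglia.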
